A study of Mus musculus with 9 samples.

Results

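The genes described here encode proteins of the striated muscle sarcomere and of heart muscle, read here from RNA-seq libraries of flow-sorted pulmonary smooth muscle of the mouse. They were a list of 41 gene symbols, chosen because heart muscle genes are found in the wall of the pulmonary vein. Of these, 40 had a row in the table of 21049 genes and Tnnc2 had none. After the filter on low values (at least 10 in at least 3 libraries) 37 of the 40 were tested, among 15647 genes, and Mybpc1, Mybph and Myoz1 were not. The 9 libraries came from lung and formed 3 groups of 3, each from its own mouse line. Bronchial smooth muscle cells (BSMC) came from mice called NVSMC-effector, with the genotype Chrm2/Acta2-CreER/R26-GFP. Pulmonary arterial smooth muscle cells (PASMC) came from mice called ASMC-effector, with the genotype Cspg4/Acta2-CreER/R26-GFP. Total pulmonary smooth muscle cells, venous cells included (total_SMC), came from mice with the genotype tg-Acta2-GFP, in which GFP is driven by an Acta2 transgene. For all groups the labels give tamoxifen, 0.75 mg per 10 g body weight injected into the peritoneum for 3 days from a 20 mg/mL solution in corn oil. The labels gave no age, and did not say whether replicates were separate animals, so p-values measure only the spread between these samples. Cell population, mouse line and sort cannot be told apart in any comparison.

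In striated muscle, myosin thick filaments slide along actin thin filaments inside sarcomeres, and troponin on the thin filament lets calcium switch contraction on. Smooth muscle has no sarcomeres and is switched on mainly through phosphorylation of its myosin light chain. In the mouse a sleeve of atrial-type heart muscle surrounds the pulmonary veins and reaches into the lung, so heart muscle genes can be read in lung tissue.

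Library depth, read from the spacing of the deposited values, was 6.39 to 10.02 M reads, and the least deep library was BSMC replicate 3. The smooth muscle markers Acta2, Myh11, Tagln and Cnn1 were present in all 9 libraries, with Acta2 between 2892 and 4526 normalized read counts. Against the labels, airway smooth muscle markers were higher in the libraries labelled PASMC than in those labelled BSMC in 6 of 8 tested, and 0 were lower. Vascular smooth muscle and pericyte markers went both ways, with 4 of 15 tested higher in PASMC and 4 lower. Over all genes, 13.2% were called higher and 8.88% lower in that comparison. BSMC and PASMC are therefore used below as the names of the labelled libraries. Fold changes are limma estimates on the scale of log2(normalized read count + 1) with the standard error (SE), and a gene is called at a Benjamini-Hochberg adjusted p under 0.05 over all 15647 genes. This scale understates the changes of genes with low values. A value of 0 means that the gene is listed at 0, and no fold is given against a group listed at 0.

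The striated and cardiac muscle genes were lower in total_SMC, the group labelled to include venous cells, than in either other group. Summed over the 40 genes they made up 923.2, 916.1 and 1536.1 CPM (normalized reads scaled to a common library total) in BSMC, 987.2, 928.5 and 1073.6 in PASMC and 333.8, 308.4 and 344.9 in total_SMC. Each of the 6 BSMC and PASMC libraries lay above all 3 total_SMC libraries. Against PASMC, 24 of the 37 tested genes fell in total_SMC and 0 rose, where over all genes 6.83% were called lower and 9.39% higher. Against BSMC, 25 fell and 2 rose, where over all genes 18.2% were called lower and 23.7% higher. Only 15 of the 37 genes reached 10 in all libraries of all 3 groups. None of the others reached 10 in every total_SMC library, and most passed the filter through BSMC or PASMC, so their calls are not independent of it. Among the 14 genes with a mean of at least 100 over all libraries, 12 fell against PASMC, and 10 fell and 1 rose against BSMC. The median log2 fold change of the 37 was -1.92 against PASMC and -1.96 against BSMC, and the median of all genes was 0.03 and 0.05. With Smpx set to a floor of 3 where it was listed at 0, and Nppb left out where both groups were at or under it, these medians were -1.94 and -1.96. The libraries of total_SMC lay below all PASMC libraries in 30 of the 37 genes (18.0% of all genes) and below all BSMC libraries in 27 (23.9%). These comparisons share the total_SMC libraries. Leaving out 1 library at a time gave 21 to 27 genes lower than PASMC and 24 to 29 lower than BSMC.

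Between the libraries labelled PASMC and BSMC few of these genes were called. Of the 37, 2 rose in PASMC and 4 fell, where over all genes 13.2% were called higher and 8.88% lower, and the median was -0.14 against 0.05 for all genes. Without BSMC replicate 3 the count of higher genes was 5, and without BSMC replicate 1, PASMC replicate 1 or PASMC replicate 2 the count of lower genes was 2. A call that is missing does not show that the groups act alike, since 15 of the 31 genes without a call changed the sign of their fold in at least 1 of 20 alternative settings.

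**Figure D1:**
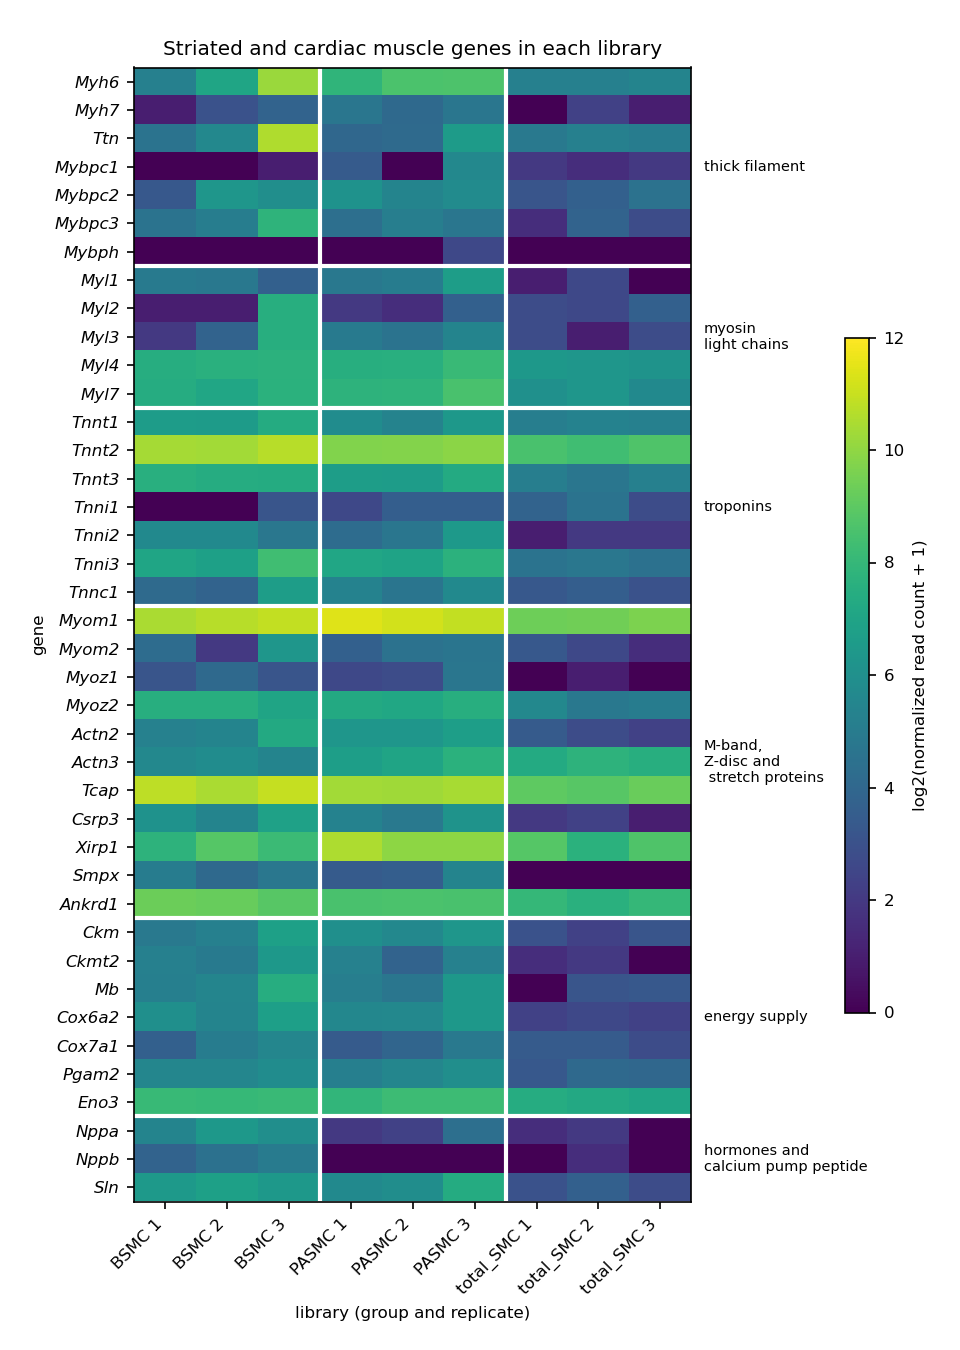
Level of the 40 striated and cardiac muscle genes in each library, as log2(normalized read count + 1), with genes in rows by role and the 9 libraries in columns. Most rows are darker in the 3 total_SMC columns, BSMC 3 is brighter for Ttn (1541), Myh6 (1190), Myl2 (183) and Myl3 (185), and Nppb is listed at 0 in all PASMC columns.

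**Figure D2:**
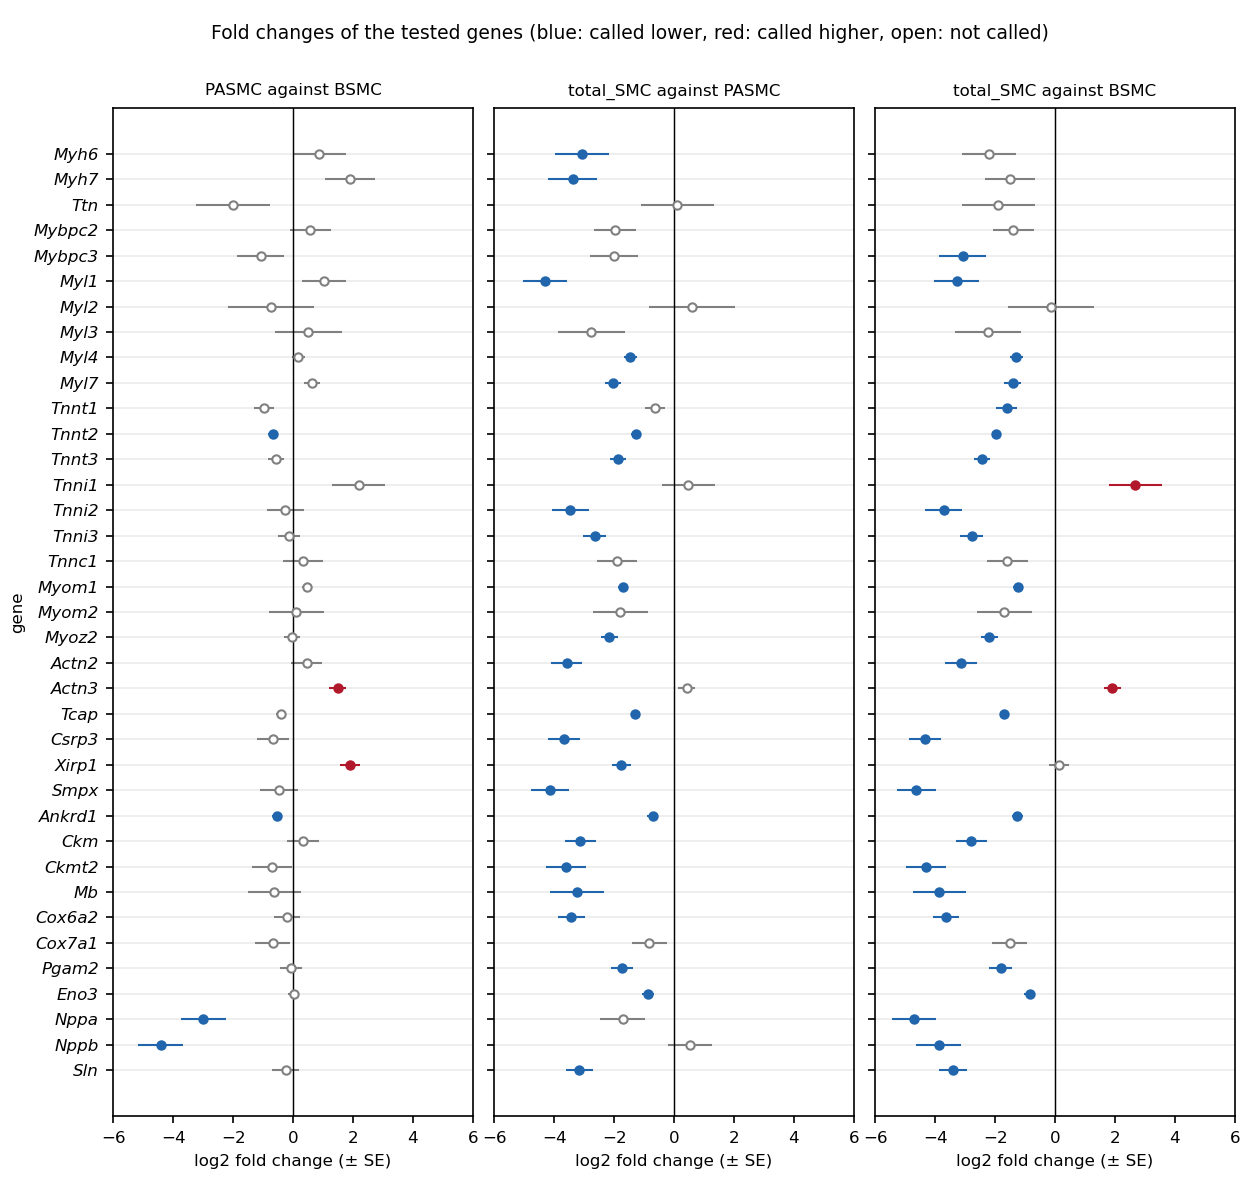
Log2 fold change (± SE of the fit, n = 3 libraries per group) of the 37 tested genes in each comparison, filled where called. Against PASMC 24 genes are called lower in total_SMC and 0 higher, against BSMC 25 lower and 2 higher, and between PASMC and BSMC 2 higher and 4 lower; for Smpx in total_SMC and Nppb in PASMC, listed at 0, the position depends on the 1 added before the log.

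Promoters are shown for the 5 genes with the largest called folds. They were taken from the genes whose higher group averaged 100 or more and whose promoter is in the RefSeq table. All 5 were called lower in total_SMC against PASMC, and all but Myh6 (adjusted p = 0.065) also against BSMC. Each run is the 250 bases before the transcription start on the gene's own strand, 5′ to 3′, from RefSeq on GRCm38.p6 (Tnnt2 has 2 starts in the table and the one farthest upstream is shown). Capitals mark matches, on either strand, to the CArG box bound by SRF, the MEF2 site, the GATA motif AGATAA and the MCAT motif CATTCC bound by TEAD factors; matches to the E-box CANNTG bound by MyoD-type factors were counted but left in lower case.
Myl7 promoter, chr11:5898783-5899032, minus strand: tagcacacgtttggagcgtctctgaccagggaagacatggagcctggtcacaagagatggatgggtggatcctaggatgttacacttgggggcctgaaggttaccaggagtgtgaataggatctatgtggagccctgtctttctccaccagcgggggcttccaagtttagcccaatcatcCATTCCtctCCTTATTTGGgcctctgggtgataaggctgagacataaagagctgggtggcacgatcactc
Myoz2 promoter, chr3:123034988-123035237, minus strand: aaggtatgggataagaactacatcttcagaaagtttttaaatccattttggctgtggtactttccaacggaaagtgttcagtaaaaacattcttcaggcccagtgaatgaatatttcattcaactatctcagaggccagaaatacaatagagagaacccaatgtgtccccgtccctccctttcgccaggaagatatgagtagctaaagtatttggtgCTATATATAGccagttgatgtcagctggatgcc
Tnnt2 promoter, chr1:135836084-135836333, plus strand: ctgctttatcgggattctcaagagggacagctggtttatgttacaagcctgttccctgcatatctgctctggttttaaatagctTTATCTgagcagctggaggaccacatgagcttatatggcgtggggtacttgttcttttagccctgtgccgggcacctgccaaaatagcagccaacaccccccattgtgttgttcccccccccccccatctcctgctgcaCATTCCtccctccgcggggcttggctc
Myh6 promoter, chr14:54966608-54966857, minus strand: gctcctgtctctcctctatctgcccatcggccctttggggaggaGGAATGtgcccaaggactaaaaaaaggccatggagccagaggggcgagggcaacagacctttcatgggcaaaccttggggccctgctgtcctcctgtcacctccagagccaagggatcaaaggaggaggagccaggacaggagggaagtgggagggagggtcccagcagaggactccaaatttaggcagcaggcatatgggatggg
Tnni3 promoter, chr7:4522529-4522778, minus strand: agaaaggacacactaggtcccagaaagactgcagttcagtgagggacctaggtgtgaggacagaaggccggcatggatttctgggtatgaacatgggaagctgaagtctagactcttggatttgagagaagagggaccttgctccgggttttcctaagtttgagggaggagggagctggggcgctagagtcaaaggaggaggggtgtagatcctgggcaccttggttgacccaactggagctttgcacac
The Myl7 run held a CArG box 61 to 52 bases before the start, next to an MCAT match at 70 to 65, and the Myoz2 run held a MEF2 site at 33 to 24. In the Tnnt2 run a GATA match lay 166 to 161 and an MCAT match 27 to 22 bases before the start, and in the Myh6 run an MCAT match lay 206 to 201 bases before it. The Tnni3 run had none of these 4 motifs. E-boxes numbered 4 in Tnnt2, 2 in Myoz2 and 1 in each of the other 3. Of 32 listed genes with a promoter in the RefSeq table, 3 held a CArG box (9.38%, against 1.62% of all 27025 genes), 4 a MEF2 site (12.5% against 3.42%), 7 a GATA motif (21.9% against 11.4%), 12 an MCAT motif (37.5% against 14.4%) and 30 an E-box (93.8% against 69.3%). A match is a string of letters and does not show that a factor binds there.

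Among the thick filament genes, Myh6, the alpha heavy chain of atrial and mouse ventricular myosin (mm39 chromosome 14, 55179378 to 55204384), had the highest level in any library except for Ttn. Its normalized read counts were 37, 130 and 1190 in BSMC, 232, 386 and 403 in PASMC and 36, 37 and 42 in total_SMC. All PASMC libraries lay above all total_SMC libraries, whereas BSMC replicate 1 fell inside the total_SMC range. For Myh6 the fold of total_SMC against PASMC passed (-3.08, SE 0.89, adjusted p = 0.0353), and that against BSMC did not (-2.21, SE 0.89, adjusted p = 0.065). The first of these calls was lost on reads without library scaling (adjusted p = 0.0587), in the fit without trend and robust (adjusted p = 0.0957) and without any 1 of the PASMC or total_SMC libraries (adjusted p 0.062 to 0.107, with all alternatives spanning 2.96e-06 to 0.107), with folds of -3.33 to -2.94. Between PASMC and BSMC, Myh6 was not called (0.87, adjusted p = 0.485), but it was without BSMC replicate 3 (2.23, adjusted p = 0.00632).

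Myh7, the slow beta heavy chain and neighbour of Myh6 (chromosome 14, 55208141 to 55232083), was scarce, with 1, 7 and 13 in BSMC, 25, 16 and 25 in PASMC and 0, 4 and 1 in total_SMC. The 3 PASMC libraries were the highest. Total_SMC lay below PASMC (-3.39, SE 0.83, adjusted p = 0.0149). That call was lost without PASMC replicate 1 (adjusted p = 0.0593) or 3 (0.0569) or total_SMC replicate 1 (0.0732) or 3 (0.0555), with all alternatives spanning 0.000519 to 0.0732, and without total_SMC replicate 2 the fold was -4.00. The Myh6 and Myh7 sequences are very similar, and how shared reads were assigned is not given in the sources used here.

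Ttn, titin, the giant protein that spans from Z-disc to M-band (chromosome 2, 76534324 to 76812891), stood at 1541 in BSMC replicate 3 and at 15 to 96 in the other 8 libraries. It was not called in any comparison (0.11 to -2.01, adjusted p 0.229 to 0.976). Mybpc3, the cardiac myosin-binding protein C, was at 23, 33 and 220 in BSMC, 20, 34 and 25 in PASMC and 2, 13 and 6 in total_SMC. Against BSMC, total_SMC was lower (-3.09, SE 0.79, adjusted p = 0.00973), by -2.10 without BSMC replicate 3 and -3.70 without BSMC replicate 1, and was not called against PASMC (-2.01, adjusted p = 0.118). Mybpc2, its fast skeletal relative, ran from 9 to 79 in BSMC, 41 to 69 in PASMC and 8 to 22 in total_SMC without a call. Of the 5 thick filament genes tested, 2 fell in total_SMC against PASMC, where 6.83% of all genes were called lower. Against BSMC 1 fell, near the 18.2% of all genes called lower. The slow skeletal Mybpc1 was not tested: it was at 10, 0 and 47 in PASMC, at 0 to 1 in BSMC and 2 to 3 in total_SMC. Mybph was listed at 0 in all libraries but PASMC replicate 3, where it was 5.

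The atrial myosin light chains were lower in total_SMC than in both other groups. Myl7, the atrial regulatory light chain (chromosome 11, 5846637 to 5848782), was at 170, 137 and 205 in BSMC, 215, 220 and 377 in PASMC and 64, 77 and 50 in total_SMC. It fell in total_SMC by 2.04 against PASMC (SE 0.28, adjusted p = 0.000477) and by 1.41 against BSMC (SE 0.28, adjusted p = 0.00225). Every PASMC library lay above every BSMC library, yet that difference was not called (0.63, SE 0.28, adjusted p = 0.118). Myl4, the atrial essential light chain (chromosome 11, 104441489 to 104486579), was at 175, 194 and 206 in BSMC, 185, 191 and 280 in PASMC and 83, 79 and 71 in total_SMC. It fell by 1.46 against PASMC (SE 0.22, adjusted p = 0.000865) and by 1.29 against BSMC (SE 0.22, adjusted p = 0.000876). Both atrial light chains thus had 3 total_SMC libraries below all 6 others.

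The ventricular light chains were high in a single library. Myl2, the regulatory light chain of ventricle and slow fibres, was at 183 in BSMC replicate 3 and at 1 to 12 in the other 8 libraries. Myl3, the essential light chain of the same muscles, was at 185 in BSMC replicate 3, 3 and 13 in the other BSMC libraries, 29, 23 and 41 in PASMC and 6, 1 and 6 in total_SMC. Neither was called in any comparison. Myl1, the essential light chain of fast skeletal fibres, was at 30, 27 and 12 in BSMC, 27, 32 and 102 in PASMC and 1, 5 and 0 in total_SMC. Both folds of total_SMC were called, at -4.32 against PASMC (SE 0.74, adjusted p = 0.00194) and -3.29 against BSMC (SE 0.74, adjusted p = 0.00471). The first fold was -3.73 without PASMC replicate 3, and without total_SMC replicate 2 or 3 the folds were -5.01 and -3.72 against PASMC and -3.99 and -2.69 against BSMC. Of the 5 light chains 3 fell in each of these comparisons, where 6.83% (PASMC) and 18.2% (BSMC) of all genes were called lower.

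Tnnt2, the cardiac troponin T that ties the troponin complex to tropomyosin (chromosome 1, 135764092 to 135779998), was the most abundant troponin. It was at 1328, 1301 and 1701 in BSMC, 837, 888 and 951 in PASMC and 369, 321 and 415 in total_SMC. The 3 groups did not overlap, with BSMC highest and total_SMC lowest. It fell in total_SMC by 1.28 against PASMC (SE 0.15, adjusted p = 0.000199) and by 1.96 against BSMC (SE 0.15, adjusted p = 3.65e-06). It was also lower in PASMC than in BSMC (-0.68, SE 0.15, adjusted p = 0.00906), a call that was lost on reads without the authors' library scaling (-0.45, adjusted p = 0.06, range 0.00377 to 0.06), where the median of all genes moved from 0.05 to 0.28.

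The fast skeletal troponin T and the cardiac inhibitory subunit fell in total_SMC against both other groups. Tnnt3, the fast skeletal troponin T (chromosome 7, 142052573 to 142069746), was at 190, 172 and 166 in BSMC, 102, 99 and 163 in PASMC and 34, 25 and 37 in total_SMC. It fell by 1.87 against PASMC (SE 0.28, adjusted p = 0.000767) and by 2.44 against BSMC (SE 0.28, adjusted p = 5.56e-05). Tnni3, the cardiac inhibitory subunit (chromosome 7, 4521304 to 4527228), was at 130, 112 and 317 in BSMC, 135, 124 and 207 in PASMC and 23, 26 and 21 in total_SMC. It fell by 2.65 against PASMC (SE 0.38, adjusted p = 0.000629) and by 2.79 against BSMC (SE 0.38, adjusted p = 0.000195). Its exons overlap those of Dnaaf3, which lies on the same strand. In both genes the total_SMC libraries formed a narrow group below all others.

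Tnnt1, the slow skeletal troponin T, was at 97, 94 and 164 in BSMC, 57, 40 and 83 in PASMC and 34, 39 and 37 in total_SMC. The fall in total_SMC was called against BSMC (-1.62, SE 0.34, adjusted p = 0.00316) but not against PASMC (-0.64, adjusted p = 0.261), although those libraries did not overlap. Tnni2, the fast skeletal inhibitory subunit, was at 51, 51 and 26 in BSMC, 18, 25 and 85 in PASMC and 1, 3 and 3 in total_SMC. Its folds were -3.46 against PASMC (adjusted p = 0.00238), or -2.81 without PASMC replicate 3, and -3.72 against BSMC (adjusted p = 0.000705). Tnnc1, the calcium-binding subunit of slow and cardiac muscle, was at 17, 13 and 102 in BSMC, 39, 24 and 51 in PASMC and 9, 11 and 7 in total_SMC. Its libraries did not overlap between total_SMC and either group, but it was not called (-1.92, adjusted p = 0.0786, and -1.59, adjusted p = 0.0775).

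Tnni1, the slow skeletal inhibitory subunit, ran the other way at low values. It was at 0, 0 and 8 in BSMC, 5, 11 and 11 in PASMC and 13, 23 and 6 in total_SMC, with 1 total_SMC library below the highest BSMC library. Against BSMC, total_SMC was higher (2.68, SE 0.89, adjusted p = 0.0316), and by 3.73 without BSMC replicate 3. It no longer passed without BSMC replicate 1 (2.15, adjusted p = 0.101) or 2 (2.15, adjusted p = 0.0778), without total_SMC replicate 1 (2.64, adjusted p = 0.086) or 2 (2.25, adjusted p = 0.122), and in a fit of only the 2 groups (adjusted p = 0.0639), with all alternatives spanning 0.00303 to 0.122. Of 7 troponins tested, 4 fell in total_SMC against PASMC, 5 fell and 1 rose against BSMC, and 1 fell in PASMC against BSMC. Of all genes, 6.83% were called lower in total_SMC against PASMC, and 18.2% lower and 23.7% higher against BSMC. In PASMC against BSMC 8.88% were called lower. The counts of 1 are near or under those shares.

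Of the proteins of the M-band, the Z-disc and the stretch response, Tcap had the highest level per length. Tcap, telethonin, which caps titin at the Z-disc (chromosome 11, 98274637 to 98275779), was at 1775, 1443 and 1978 in BSMC, 1274, 1234 and 1384 in PASMC and 516, 466 and 619 in total_SMC. It fell in total_SMC by 1.29 against PASMC (SE 0.15, adjusted p = 0.000185) and by 1.69 against BSMC (SE 0.15, adjusted p = 1.09e-05). Its 3 groups did not overlap, but PASMC and BSMC were not called apart (-0.41, SE 0.15, adjusted p = 0.0739). In 4 of the 20 alternatives that difference passed, among them the fit without BSMC replicate 2 (-0.53, adjusted p = 0.0113). Tcap and Tnnt2 were the 2 listed genes with at least 1 read per base of their longest coding transcript in a group. Tcap had 1.67 reads per base in BSMC and 1.48 in PASMC, and Tnnt2 1.1 in BSMC. The part of that density in their folds was not tested.

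Myom1, myomesin, which crosslinks thick filaments at the M-band (chromosome 17, 71309628 to 71433851), was at 1432, 1689 and 1929 in BSMC, 2733, 2288 and 1902 in PASMC and 652, 671 and 796 in total_SMC. It fell in total_SMC by 1.70 against PASMC (SE 0.16, adjusted p = 4.73e-05) and by 1.25 against BSMC (SE 0.16, adjusted p = 0.000131). PASMC and BSMC overlapped and were not called apart (0.45, adjusted p = 0.0644), though they were when replicate 3 of BSMC (0.55, adjusted p = 0.045) or of PASMC (0.58, adjusted p = 0.0403) was left out. Exons of Myom1 overlap those of Myl12a on the opposite strand, and the library kit does not mark strand, so reads of the 2 genes cannot be told apart there. The second myomesin, Myom2, ran from 3 to 79 in BSMC, 12 to 24 in PASMC and 2 to 9 in total_SMC, without a call.

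Xirp1 and Actn3 were the 2 genes that rose in PASMC against BSMC. Xirp1, an actin-binding protein of heart and skeletal muscle (chromosome 9, 119842821 to 119852664), was at 216, 452 and 290 in BSMC, 1482, 984 and 997 in PASMC and 454, 200 and 407 in total_SMC. The PASMC libraries lay above all others, and those of the other groups overlapped. It was higher in PASMC than in BSMC (1.89, SE 0.33, adjusted p = 0.00209), lower in total_SMC than in PASMC (-1.76, SE 0.33, adjusted p = 0.00332) and not called between total_SMC and BSMC (0.13, adjusted p = 0.775). Actn3, the alpha-actinin of fast fibres (chromosome 19, 4911244 to 4927937), was at 48, 57 and 42 in BSMC, 104, 126 and 202 in PASMC and 162, 216 and 182 in total_SMC. It was higher than in BSMC both in PASMC (1.49, SE 0.28, adjusted p = 0.00327) and in total_SMC (1.91, SE 0.28, adjusted p = 0.000317), while PASMC and total_SMC overlapped (0.42, adjusted p = 0.393). Among the 37 tested genes, Actn3 was the 1 whose total_SMC libraries all lay above all BSMC libraries. These 3 calls of Actn3 and Xirp1 against BSMC held in each of the 20 alternatives.

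Actn2, the alpha-actinin of cardiac and skeletal Z-discs, went the opposite way to Actn3. It was at 38, 42 and 154 in BSMC, 79, 77 and 106 in PASMC and 10, 6 and 4 in total_SMC. In total_SMC it was lower by -3.59 against PASMC (SE 0.53, adjusted p = 0.000767) and by -3.13 against BSMC (SE 0.53, adjusted p = 0.000829), the latter -2.49 without BSMC replicate 3. Myoz2, calsarcin of heart and slow fibres, which binds calcineurin at the Z-disc (chromosome 3, 122799855 to 122828664), was at 184, 181 and 128 in BSMC, 153, 139 and 184 in PASMC and 47, 27 and 32 in total_SMC. It fell by 2.16 against PASMC (SE 0.28, adjusted p = 0.000318) and by 2.20 against BSMC (SE 0.28, adjusted p = 0.000114). Its fast-fibre relative Myoz1, not tested, was at 8, 16 and 8 in BSMC, 5, 6 and 25 in PASMC and 0, 1 and 0 in total_SMC.

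Csrp3, a LIM protein of the Z-disc, and Smpx, a small protein of heart and skeletal muscle, were at or near 0 in the total_SMC libraries. Csrp3 was at 69, 41 and 114 in BSMC, 39, 28 and 71 in PASMC and 3, 4 and 1 in total_SMC. It was lower by -3.68 against PASMC (SE 0.54, adjusted p = 0.000746) and by -4.35 against BSMC (SE 0.54, adjusted p = 0.000105). Smpx was at 32, 16 and 26 in BSMC and 10, 11 and 41 in PASMC and was listed at 0 in every total_SMC library, and both calls passed (adjusted p = 0.000996 and 0.000213).

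Ankrd1, a titin-linked protein induced by stretch (chromosome 19, 36089361 to 36097499), was at 628, 586 and 466 in BSMC, 378, 385 and 381 in PASMC and 250, 193 and 257 in total_SMC. The groups did not overlap, in the order BSMC, PASMC, total_SMC. In total_SMC it lay below BSMC (-1.26, SE 0.18, adjusted p = 0.000215) and below PASMC (-0.72, SE 0.18, adjusted p = 0.0151), and lower in PASMC than in BSMC (-0.54, SE 0.18, adjusted p = 0.0461). The last of these was lost in 12 of 20 alternatives, among them the fits without BSMC replicate 1 (adjusted p = 0.14) or 2 (0.0516), without PASMC replicate 1 (0.129), 2 (0.116) or 3 (0.09) and without total_SMC replicate 1 (0.0626) or 3 (0.0677), with all alternatives spanning 0.0237 to 0.35. The call against PASMC was lost on reads without library scaling (0.0559) and without PASMC replicate 2 (0.0566) or total_SMC replicate 2 (0.0747), with all alternatives spanning 0.00163 to 0.0747. Of the 10 genes of this group that were tested, 8 fell in total_SMC against PASMC, and 7 fell and 1 rose against BSMC. Of all genes, 6.83% were called lower against PASMC, and 18.2% lower and 23.7% higher against BSMC.

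**Figure D3:**
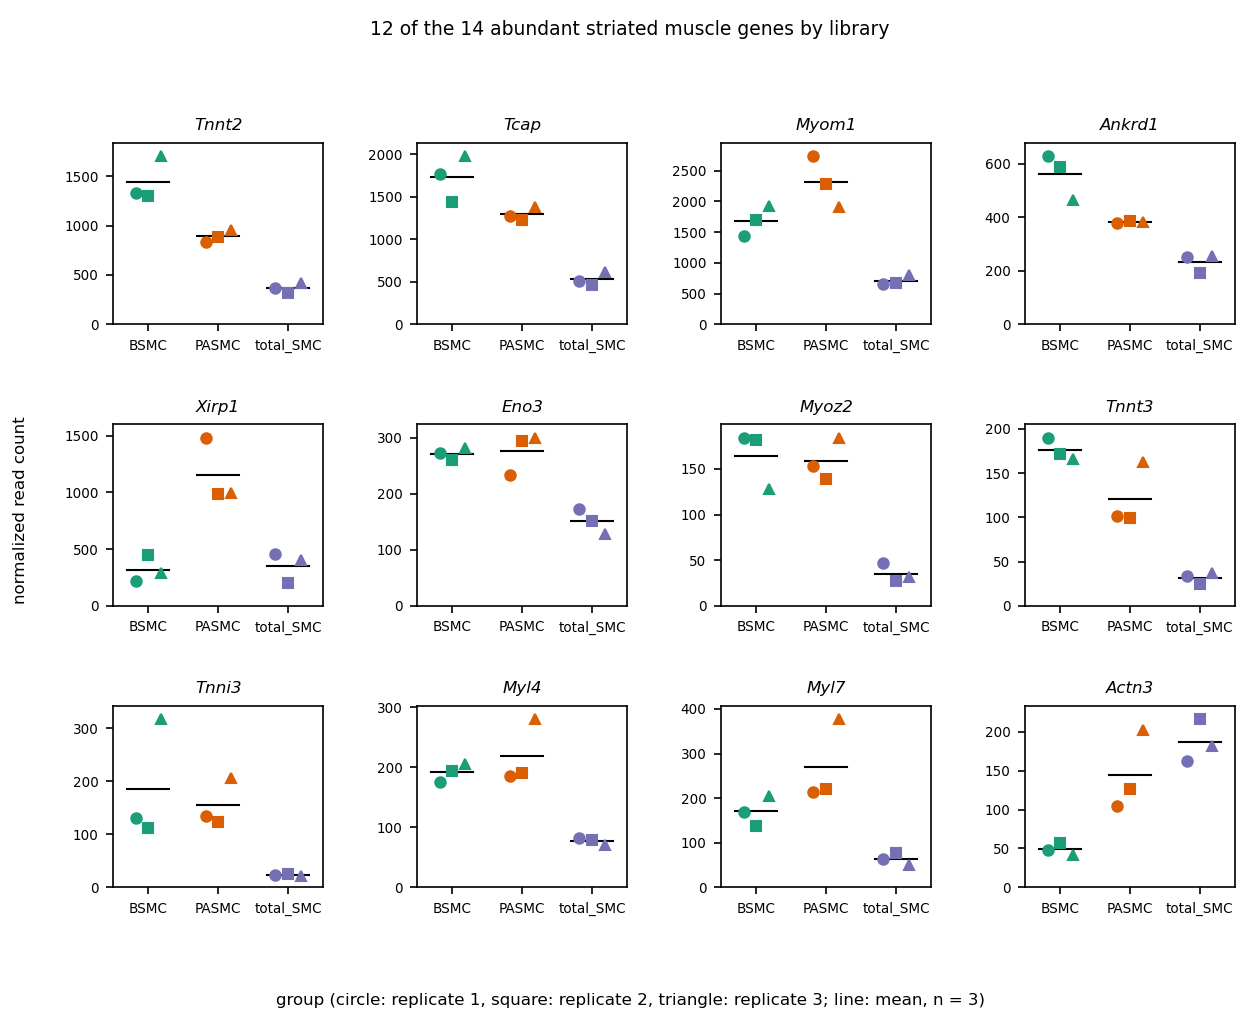
Normalized read count of 12 of the 14 genes with a mean of at least 100 over all 9 libraries, 1 point per library with a line at the group mean (n = 3); each panel has its own axis from 0. Tnnt2, Tcap and Ankrd1 step down from BSMC to PASMC to total_SMC, Xirp1 stands out in PASMC (984 to 1482) and Actn3 is lowest in BSMC (42 to 57).

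Of 7 muscle-type enzymes and oxygen carriers, 6 fell in total_SMC against each other group. Of all genes, 6.83% were called lower against PASMC and 18.2% against BSMC. All of the 7 but Eno3 passed the filter on low values through BSMC and PASMC, where they are high, so their calls are not independent of it. Cox6a2, the muscle isoform of a cytochrome c oxidase subunit, was at 61, 42 and 110 in BSMC, 46, 47 and 83 in PASMC and 4, 5 and 4 in total_SMC. It was lower by -3.43 against PASMC (SE 0.44, adjusted p = 0.000309) and -3.65 against BSMC (SE 0.44, adjusted p = 8.14e-05). Ckm, the cytosolic muscle creatine kinase that buffers ATP, was at 28, 36 and 113 in BSMC, 61, 48 and 79 in PASMC and 7, 4 and 8 in total_SMC. Its folds were -3.13 (adjusted p = 0.00154) and -2.80 (adjusted p = 0.00151), the second -2.20 without BSMC replicate 3. In both genes the total_SMC libraries stayed under 10 and all others were at 28 or more.

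Ckmt2, the mitochondrial creatine kinase of striated muscle, was at 36, 29 and 83 in BSMC, 38, 13 and 38 in PASMC and 2, 3 and 0 in total_SMC, lower by -3.60 against PASMC (adjusted p = 0.00319) and -4.31 against BSMC (adjusted p = 0.000475). Without total_SMC replicate 3 these folds were -3.00 and -3.71. Mb, myoglobin, was at 35, 43 and 175 in BSMC, 34, 25 and 82 in PASMC and 0, 8 and 9 in total_SMC. It was lower by -3.24 against PASMC (SE 0.89, adjusted p = 0.0283) and -3.87 against BSMC (SE 0.89, adjusted p = 0.00544). The first call was lost in the fit without trend and robust (adjusted p = 0.0678) and without PASMC replicate 1 (adjusted p = 0.0637) or 3 (0.113) or total_SMC replicate 1 (-2.16, adjusted p = 0.0888), with all alternatives spanning 0.00847 to 0.113, and the second fold was -3.15 without BSMC replicate 3 and -2.78 without total_SMC replicate 1.

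The 2 glycolytic enzymes differed less. Eno3, the muscle enolase (chromosome 11, 70548028 to 70553339), was at 272, 261 and 281 in BSMC, 234, 294 and 300 in PASMC and 173, 152 and 128 in total_SMC. It fell by 0.87 against PASMC (SE 0.19, adjusted p = 0.00797) and by 0.85 against BSMC (SE 0.19, adjusted p = 0.0043), and the first call was lost without total_SMC replicate 3 (adjusted p = 0.0502, range 0.000402 to 0.0502). Pgam2, the muscle phosphoglycerate mutase, was at 45, 44 and 56 in BSMC, 35, 45 and 60 in PASMC and 9, 16 and 15 in total_SMC, with folds of -1.74 (adjusted p = 0.00753) and -1.81 (adjusted p = 0.00286). Cox7a1, a further muscle isoform of cytochrome c oxidase, ran from 12 to 45 in BSMC, 10 to 28 in PASMC and 6 to 10 in total_SMC without a call. No enzyme was called between PASMC and BSMC.

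The cardiac hormones were highest in BSMC. BSMC was also the 1 group in which they reached 10 in all libraries. Both thus passed the filter through the group where they are high, and their calls against BSMC are not independent of it. Nppa, the atrial natriuretic peptide (chromosome 4, 148085179 to 148086536), was at 42, 82 and 59 in BSMC, 3, 4 and 20 in PASMC and 2, 3 and 0 in total_SMC. Nppb, the B-type natriuretic peptide that lies beside it (148070245 to 148071662), was at 13, 21 and 31 in BSMC, was listed at 0 in all PASMC libraries and was at 0, 2 and 0 in total_SMC. For both genes every BSMC library lay above every other library. Nppa was lower in PASMC than in BSMC (-3.00, SE 0.75, adjusted p = 0.0156) and lower again in total_SMC (-4.71, SE 0.75, adjusted p = 0.000525). The first call was lost without PASMC replicate 1 (-2.55, adjusted p = 0.0719) or 2 (-2.71, adjusted p = 0.0625), with all alternatives spanning 0.00314 to 0.0719, and was -3.74 without PASMC replicate 3; the second was -4.11 without total_SMC replicate 3. Nppb passed against BSMC in PASMC (adjusted p = 0.00166) and in total_SMC (adjusted p = 0.00184). Neither hormone was called between total_SMC and PASMC (Nppa -1.71, adjusted p = 0.16).

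Sln, sarcolipin, a small inhibitor of the calcium pump in atrium and in skeletal muscle, followed the larger pattern instead. It was at 88, 113 and 84 in BSMC, 51, 58 and 167 in PASMC and 7, 12 and 6 in total_SMC, lower by -3.16 against PASMC (SE 0.46, adjusted p = 0.000702) and by -3.40 against BSMC (SE 0.46, adjusted p = 0.000185). PASMC and BSMC overlapped (-0.25, adjusted p = 0.714).

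Compared per kilobase of the longest coding transcript, the same few genes led in each group. In BSMC, normalized read counts per kilobase were 1830 for Tcap, 1200 for Tnnt2, 298 for Myom1, 289 for Myl7, 277 for Ankrd1, 204 for Tnni3 and 203 for Myl4. In PASMC they were 1370 for Tcap, 743 for Tnnt2, 459 for Myl7, 409 for Myom1, 232 for Myl4 and 198 for Xirp1. In total_SMC they were 563 for Tcap, 307 for Tnnt2, 125 for Myom1, 116 for Ankrd1 and 108 for Myl7. Levels covered a wide range: 22 of the 40 genes had a mean under 10 in total_SMC, against 4 in BSMC and 5 in PASMC. Among the 14 genes with a mean of at least 100 over all libraries, 12 fell in total_SMC against PASMC, and 10 fell and 1 rose against BSMC. Of all genes, 6.83% were called lower against PASMC, and 18.2% lower and 23.7% higher against BSMC. Of the 37 tested, 15 reached 10 in all libraries of all 3 groups, 14 in 2 groups only, 6 in 1 group only and 2 in none. The 14 and the 6 passed the filter through the groups where they reached 10. The 2 in none were Myl2 and Tnni1, which passed it through libraries of more than 1 group. Myl2 reached 10 only in replicate 3 of BSMC (183), of PASMC (12) and of total_SMC (12).

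Part of the list was carried by single libraries. BSMC replicate 3 was the highest of its group in 26 of the 37 tested genes (70.3%, against 34.3% of all genes) and at least 2-fold above the next BSMC library, after adding 1 to each, in 13 (35.1%, against 2.98%). These 13 were Ttn, Myh6, Mybpc3, Myl2, Myl3, Tnni3, Tnnc1, Tnni1, Myom2, Actn2, Ckm, Ckmt2 and Mb. The ratio to the next library was 92.0 for Myl2, 31.5 for Ttn, 13.3 for Myl3, 9.1 for Myh6 and 6.5 for Mybpc3. The atrial genes Myl4, Myl7 and Sln and the hormone Nppa were not among them: Myl7 was 205 in that library against 170 and 137, and Sln 84 against 88 and 113. Myh6, the heavy chain of atrial as well as ventricular myosin, was among the 13, so atrial genes did not share 1 pattern. BSMC replicate 3 was also the least deep library, and the part of depth in this pattern was not tested.

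**Figure D4:**
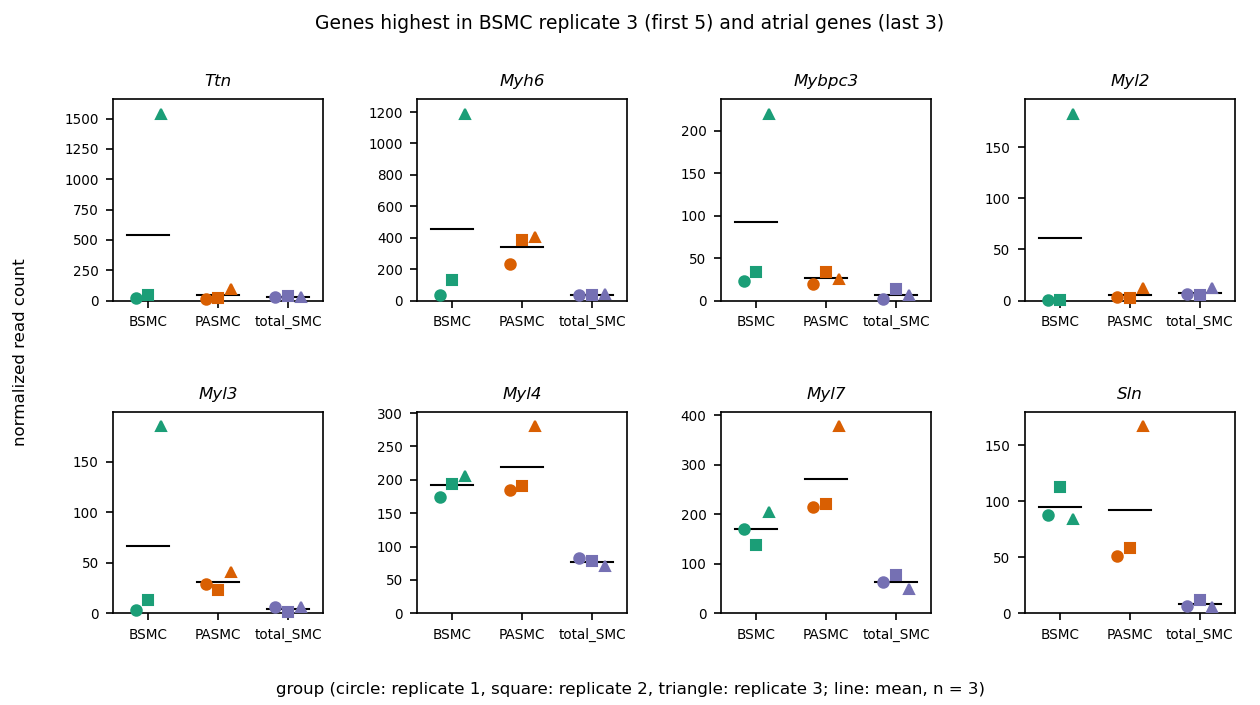
Normalized read count of 5 genes led by BSMC replicate 3 (Ttn, Myh6, Mybpc3, Myl2, Myl3) and of the atrial genes Myl4, Myl7 and Sln, 1 point per library with a line at the group mean (n = 3) and an axis from 0 in each panel. The triangle of BSMC replicate 3 stands far above the other 2 BSMC libraries in the first 5 panels and not in the last 3. Myh6, among the first 5, is also a gene of the atrium.

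PASMC replicate 3 was the highest of its group in 28 of the 37 genes (75.7%, against 37.6% of all genes) and at least 2-fold above the next in 8 (21.6%, against 2.69%). These 8 were Ttn, Myl1, Myl2, Tnni2, Smpx, Mb, Nppa and Sln, and the untested Mybpc1, Mybph and Myoz1 were highest there too. Several of them are fast skeletal isoforms. Other skeletal genes differed in whether they were highest there: Casq1, the calcium store protein, was at 961, 827 and 879 in PASMC, Pvalb, parvalbumin, at 10, 10 and 5, Myh4 at 8, 0 and 7 and Mybpc2 at 69, 41 and 54. Acta1, skeletal actin and no member of the list, was at 166, 199 and 755 in PASMC, 132, 216 and 281 in BSMC and 2, 7 and 8 in total_SMC. Myod1, the factor that commits cells to skeletal muscle, was at 8, 22 and 76 in PASMC and at 0 to 1 in the other 6 libraries, and Myog was at 6, 16 and 67 there; these factors and Chodl were named after their values were seen. Summed over the 5 genes of skeletal satellite cells, the stem cells of skeletal muscle, PASMC had 19.3, 35.3 and 75.9 CPM, BSMC 7.0, 4.8 and 1.7 and total_SMC 1.8, 5.0 and 3.6. Chodl, a marker of these cells, was at 100, 140 and 307 in PASMC, 17, 5 and 0 in BSMC and 10, 31 and 23 in total_SMC (5.10 in PASMC against BSMC, SE 0.88, adjusted p = 0.00193; 6.06 without BSMC replicate 1 and 3.98 without BSMC replicate 3). The part of other cells in the values of PASMC replicate 3 was not tested.

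**Figure D5:**
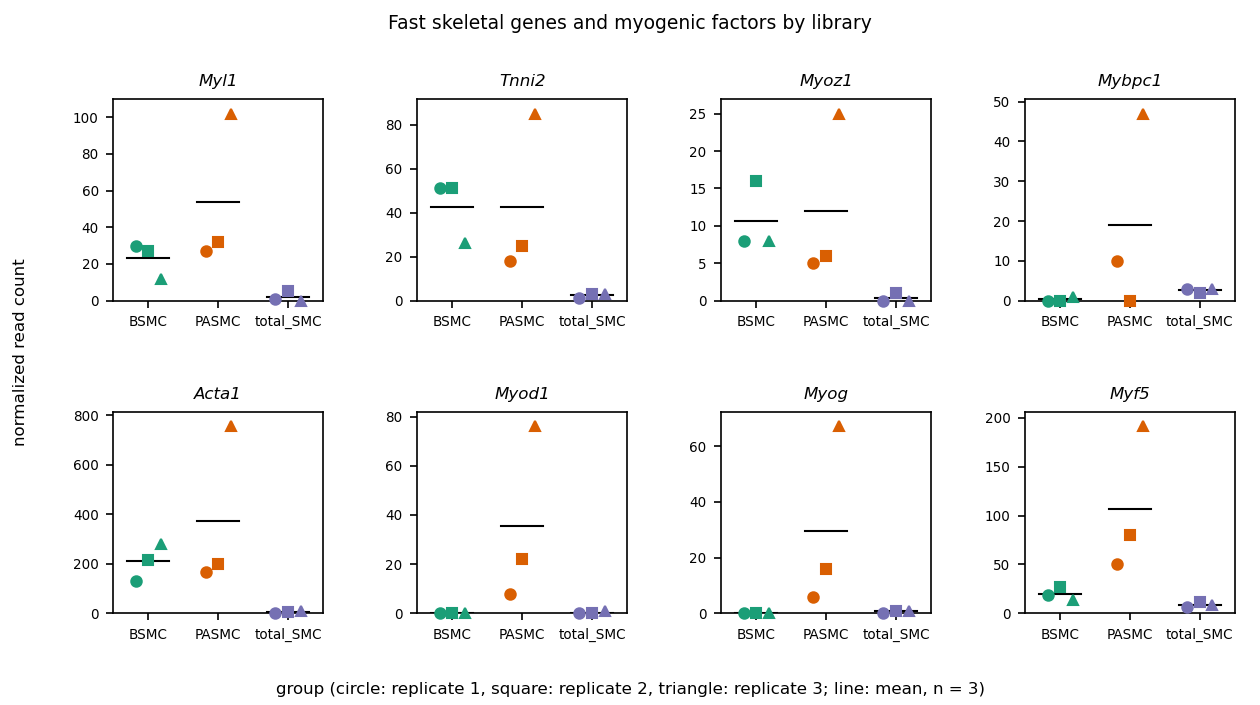
Normalized read count of the fast or slow skeletal genes Myl1, Tnni2, Myoz1 and Mybpc1 and of 4 genes outside the list (Acta1, Myod1, Myog and Myf5), 1 point per library with a line at the group mean (n = 3) and an axis from 0 in each panel. PASMC replicate 3 (triangle) is the highest library in all 8 panels, with Acta1 at 755 and Myl1 at 102.

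Defining markers of heart muscle cells were present in every library. Besides Myh6, Tnnt2, Tnni3 and Myl7, these are Actc1, cardiac actin, at 3042, 2422 and 3497 in BSMC, 2603, 2319 and 2588 in PASMC and 2211, 2189 and 2577 in total_SMC, and Ryr2, the cardiac calcium release channel, at 61, 97 and 212, 96, 66 and 143, and 26, 27 and 28. Ryr2 fell in total_SMC against BSMC (-1.96, SE 0.43, adjusted p = 0.00419) and against PASMC (-1.81, SE 0.43, adjusted p = 0.0138), the second not without PASMC replicate 3 (adjusted p = 0.0638) or total_SMC replicate 1 (0.0507), with all alternatives spanning 0.000439 to 0.0638. Actc1 was not called in any comparison and also had at least 1 read per base. The 4 markers outside the list (Actc1, Ryr2, Nkx2-5 and Tbx20) summed to 304.5 to 455.3 CPM in BSMC, 276.4 to 321.0 in PASMC and 246.5 to 278.2 in total_SMC. Actc1 made up 94.0% to 98.6% of that sum, and the other 3 summed to 11.3 to 27.3, 8.0 to 18.7 and 3.5 to 5.2 CPM. The factor Nkx2-5 was at 4 to 8 in BSMC, at 0, 0 and 11 in PASMC and at 0 to 1 in total_SMC, and was at 0 in 3 libraries.

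Skeletal fibre markers were present at lower levels. The 9 markers outside the list summed to 134.9 to 172.3 CPM in BSMC, 132.0 to 231.1 in PASMC and 26.3 to 42.2 in total_SMC. Casq1 made up 44.4% to 83.9% of that sum, and the other 8 summed to 26.4 to 42.6, 31.4 to 128.5 and 6.8 to 10.1 CPM. Of the defining ones, Mylpf was at 35, 21 and 42 in BSMC, 25, 34 and 100 in PASMC and 10, 22 and 9 in total_SMC. Myh1 was at 1, 38 and 6, 45, 19 and 72, and 36, 14 and 26, and Myh4 was at 0 to 6, 0 to 8 and 1 to 9. The fast heavy chains overlapped between total_SMC and both other groups. Acta1 did not and was lower in total_SMC (-5.61 against PASMC, SE 0.58, adjusted p = 8.46e-05, -4.93 without PASMC replicate 3, and -5.07 against BSMC, SE 0.58, adjusted p = 6.35e-05). In bulk samples, fewer cells of a type and less RNA per cell cannot be told apart.

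Markers of several other cell types also differed between the groups. Mesothelial markers were higher in total_SMC in 7 of 7 against PASMC (9.39% of all genes) and 6 of 7 against BSMC (23.7% of all genes). Their sums were 595.8 to 743.2 CPM against 28.4 to 47.8 and 68.3 to 173.2. Leukocyte markers summed to 707.9 to 1091.6 CPM in BSMC, 197.4 to 208.7 in PASMC and 56.5 to 90.6 in total_SMC. Between PASMC and total_SMC that sum goes against most of the markers. Of the 9, 5 were called higher in total_SMC than in PASMC and 1 lower, with a median log2 fold change of 2.04. Over all genes, 9.39% were called higher and 6.83% lower there. Fibroblast markers summed to 4063.2 to 4769.9, 4683.4 to 5224.2 and 5821.6 to 6444.5. Adipocyte markers, brown fat included, summed to 36.2 to 50.5 CPM in BSMC, 24.8 to 33.6 in PASMC and 7.9 to 13.1 in total_SMC, lowest in total_SMC like the striated genes. Most of that sum was Cidea, a lipid droplet protein of brown fat, at 239 to 367, 213 to 266 and 52 to 113, whereas Adipoq, the fat cell hormone adiponectin, was at 0 to 6 in all libraries. Endothelial markers summed to 918.3 to 947.7, 751.0 to 958.5 and 1273.4 to 1590.0 CPM, and erythroid markers to 35.0 to 84.5, 0.8 to 2.3 and 8.8 to 16.8. Smooth muscle markers summed to 3343.2 to 3959.4 CPM in BSMC, 3041.7 to 3371.4 in PASMC and 2492.2 to 2864.7 in total_SMC. The smooth muscle sum in total_SMC was thus lower than elsewhere. Of the 7 smooth muscle markers, 2 were called lower against PASMC (median log2 fold change -0.13) and 5 against BSMC (median -0.37), and 0 higher. Against BSMC 18.2% of all genes were called lower. Acta2, Myh11, Cnn1, Smtn and Actg2 also had at least 1 read per base. The part of these cell types in the fall of the striated genes was not tested.

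Among other sarcomere, Z-disc and chaperone genes more fell than rose in total_SMC. Of 56 tested, 25 fell in total_SMC against PASMC and 2 rose, and 29 fell and 4 rose against BSMC, with medians of -0.84 and -0.73. Over all genes, 6.83% were called lower and 9.39% higher against PASMC, and 18.2% lower and 23.7% higher against BSMC. Mylk2, the skeletal myosin light chain kinase, was at 196, 439 and 185 in BSMC, 215, 233 and 129 in PASMC and 20, 41 and 43 in total_SMC (-2.47, SE 0.40, adjusted p = 0.00132 against PASMC and -2.90, SE 0.40, adjusted p = 0.000211 against BSMC). Trim63, a ubiquitin ligase of muscle wasting, was at 8 to 34 in BSMC, 10 to 18 in PASMC and 0 to 1 in total_SMC (-3.17, adjusted p = 0.00584, and -3.37, adjusted p = 0.00199). Not all such genes were low: Obsl1, a cytoskeletal relative of obscurin, was at 397, 518 and 642 in BSMC, 948, 968 and 865 in PASMC and 1275, 1060 and 1148 in total_SMC, higher than in BSMC by 0.86 in PASMC (adjusted p = 0.00462) and 1.18 in total_SMC (adjusted p = 0.00029). Unc45b, a myosin chaperone, was at 30, 63 and 36 in PASMC and 103, 112 and 118 in total_SMC (1.42, adjusted p = 0.00979). Between PASMC and BSMC, 4 of the 56 rose and 0 fell, where over all genes 13.2% were called higher and 8.88% lower.

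Skeletal excitation genes and cardiac calcium genes were tested beside them. Of 11 skeletal excitation and fibre genes, 4 fell and 0 rose in total_SMC against each other group, among them Casq1, the calcium store protein calsequestrin, at 865, 979 and 1060 in BSMC, 961, 827 and 879 in PASMC and 244, 143 and 333 in total_SMC (-1.96, adjusted p = 0.000302, and -2.09, adjusted p = 8.1e-05). Of 32 genes of cardiac calcium handling and excitability, 11 fell and 3 rose against PASMC, and 11 fell and 4 rose against BSMC. Over all genes, 6.83% were called lower and 9.39% higher against PASMC, and 18.2% lower and 23.7% higher against BSMC. Jph2, which holds the sarcoplasmic reticulum to the surface membrane, was at 1473, 1975 and 2808 in BSMC, 2651, 1923 and 2926 in PASMC and 929, 990 and 804 in total_SMC (-1.44, adjusted p = 0.000927, and -1.15, adjusted p = 0.0018). Cacna1c, the L-type calcium channel, fell by 1.66 against BSMC (SE 0.24, adjusted p = 0.000267). The direction was not shared by the whole list: Gja5, the atrial and arterial connexin, was at 279, 254 and 157 in BSMC, 412, 320 and 341 in PASMC and 718, 624 and 659 in total_SMC (1.57 against BSMC, SE 0.22, adjusted p = 0.000198).

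Most muscle metabolism genes outside the list were not called. Of 32 tested, 9 fell and 3 rose in total_SMC against PASMC, and 11 fell and 4 rose against BSMC. The shares of all genes called lower and higher were 6.83% and 9.39% against PASMC and 18.2% and 23.7% against BSMC. Adssl1, the muscle adenylosuccinate synthase, was at 430, 512 and 431 in BSMC, 338, 323 and 327 in PASMC and 85, 63 and 72 in total_SMC (-2.16, SE 0.18, adjusted p = 2.16e-05, and -2.63, SE 0.18, adjusted p = 1.5e-06). Fabp3, the heart fatty acid binding protein, was at 155, 118 and 154, 115, 91 and 129, and 25, 32 and 37 (-1.80, adjusted p = 0.000823, and -2.15, adjusted p = 0.000111). Gpd1, a glycerol phosphate dehydrogenase, was lower by -2.07 (adjusted p = 0.000112) and -1.67 (adjusted p = 0.00018). The genes that rose against PASMC were Ucp2, Cd36 and Lpl, which handle mitochondrial protons and fatty acid uptake and are not particular to muscle.

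Cardiac and muscle transcription factors were called in both directions. Of 16 cardiac and pulmonary vein factors, 6 rose and 2 fell in PASMC against BSMC, 0 rose and 6 fell in total_SMC against PASMC, and 2 rose and 4 fell in total_SMC against BSMC. Over all genes, the shares called higher and lower were 13.2% and 8.88%, 9.39% and 6.83%, and 23.7% and 18.2%. The 4 that fell against BSMC are near that share. Hand2, a factor of heart and limb, was at 34, 23 and 35 in BSMC, 0, 0 and 5 in PASMC and 1, 3 and 0 in total_SMC. It passed the filter through BSMC, where it is high. It was lower than in BSMC in PASMC (-4.10, SE 0.84, adjusted p = 0.00551, -4.96 without PASMC replicate 3) and in total_SMC (-3.96, SE 0.84, adjusted p = 0.00338). Of 21 muscle factors, 6 rose and 2 fell in PASMC against BSMC, and 1 rose and 6 fell in total_SMC against PASMC. Srf, which binds the CArG box, was at 577, 610 and 623 in BSMC, 825, 701 and 783 in PASMC and 427, 392 and 427 in total_SMC (-0.89 against PASMC, SE 0.13, adjusted p = 0.000841, and -0.54 against BSMC, SE 0.13, adjusted p = 0.00814). The second call was lost on reads without library scaling (-0.36, adjusted p = 0.123, with all alternatives spanning 0.00175 to 0.123).

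Of the 10 genes of the natriuretic peptide system beside the hormones, 3 rose and 0 fell in PASMC against BSMC, 1 rose and 3 fell in total_SMC against PASMC, and 3 rose and 1 fell in total_SMC against BSMC. Over all genes, the shares called higher and lower were 13.2% and 8.88%, 9.39% and 6.83%, and 23.7% and 18.2%. The counts of the last comparison are near those shares. Npr1, the receptor of both hormones, was at 615, 693 and 495 in BSMC, 536, 530 and 669 in PASMC and 374, 324 and 299 in total_SMC, and was lower there against BSMC (-0.85, SE 0.18, adjusted p = 0.00289) and against PASMC (-0.80, SE 0.18, adjusted p = 0.00849). On reads without the library scaling neither passed (-0.66, adjusted p = 0.0725, and -0.84, adjusted p = 0.062, the largest values over the alternatives; the smallest were 0.00067 and 0.000209). Mme, neprilysin, which degrades the hormones, was at 49, 77 and 104 in BSMC, 145, 99 and 123 in PASMC and 389, 571 and 490 in total_SMC, higher in total_SMC by 1.97 (adjusted p = 0.000668) and 2.69 (adjusted p = 3.48e-05). Furin, a protease that cleaves hormone precursors, was at 1118, 1123 and 1446 in BSMC, 1980, 2051 and 2371 in PASMC and 1474, 1475 and 1301 in total_SMC, higher in PASMC than in BSMC (0.80, SE 0.14, adjusted p = 0.0016).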

How the data were processed

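RNA of sorted lung smooth muscle cells was measured in 9 libraries. The submitters' processing notes list, with no role or order, the build mm39, DESeq2 1.36.0, featureCounts 2.0.4, STAR 2.7.11a, Picard 3.1.1 and Trimmomatic 0.39. The values the authors deposited have the unit score here: they are read counts per gene, normalized and rounded to whole numbers, as the spacing of the values shows, so no count model was used. The spacing gave a scaling factor for each library, and dividing by it gave the reads. Reads per base use the longest coding transcript of GENCODE vM21, matched by identifier for 40 genes, and gene coordinates are those of the table.

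Genes at 10 or more in at least 3 libraries were fitted in 1 limma model of 3 group means on log2(value + 1) with all 9 libraries (limma 3.58.1, R 4.3.3; eBayes with trend and robust), adjusted by Benjamini-Hochberg; the fit and the factors were tested on simulated data. The 20 alternatives per comparison were other pseudocounts, filters, scalings and fits, a replicate block, and each library left out. CPM sums divide by the normalized total. Figures used matplotlib 3.10.9, and tables pandas 2.3.3 with numpy 2.4.6 and scipy 1.17.1 under Python 3.11.15.

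The genes and lists were chosen with earlier results of these data known. Named genes are listed genes called in any comparison or with a mean of at least 100 in a group, up to 4 called genes with the largest folds per comparison and direction of each other list, and the defining markers; the others are named as chosen after seeing values. Between same-group libraries the chi-square per gene was 6.1 to 31.16, so none was a copy. Of the 40 genes, 8 share exonic bases with another gene of the table, 7 of them on the opposite strand: Cox6a2, Mb, Mybph, Myh7, Myl2, Myl3 and Myom1.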

Additional observations from a re-analysis of the deposited data

How the results depend on the processing

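None of the 57 called results of the striated and cardiac muscle genes reversed under the alternatives that gave them a value, which were all 20 for 40 results and 16 to 19 for the other 17. For PASMC against BSMC, the count of higher genes was 2 to 5 when 1 library was left out, and the count of lower genes was 2 to 4, 2 under a stricter filter (21 genes tested) and 2 on reads without library scaling, which moved the median of all genes to 0.28. For total_SMC against BSMC, the count of higher genes was 1 under the stricter filter, 1 in a fit of only the 2 groups and 1 to 2 when 1 library was left out. With a pseudocount of 5, 21 of the 57 folds moved by over 1.5 times. The deviations of same-numbered libraries correlated at -0.124 to 0.136, and those of other numbers at -0.19 to 0.14. Such values cannot settle whether same-numbered libraries shared a day or a sort. With the replicate block 2 genes rose and 4 fell in PASMC against BSMC. In total_SMC, 0 rose and 24 fell against PASMC, and 2 rose and 26 fell against BSMC. The 22 genes with a mean under 10 in total_SMC rest on few reads. Depth was 8.93 to 9.9 M reads in total_SMC and 6.39 to 9.33 M in BSMC, and its part in these values was not tested.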
